A study of Mus musculus with 24 samples.

Results

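The comparison described here sets T6E cells that carried R1984A against T6E cells that carried the empty vector, both with gamma-secretase blocked. T6E is a mouse T-cell leukaemia line. Its members were chosen by sample title and are the 3 arrays of R1984A-GSI and the 3 arrays of MigR1-GSI, 6 of the 24 arrays of the series. The R1984A-GSI cells had been transfected with an intracellular Notch 1 that is defective in dimerization, and the MigR1-GSI cells with the MigR1 vector without an insert. Both groups received 1 uM of the gamma-secretase inhibitor (GSI) Compound E for 6 hours. Further groups serve for comparison. R1984A-DMSO and MigR1-DMSO carried the same constructs and received DMSO for 6 hours, and ICN1-GSI carried intracellular Notch 1 (ICN1) without the R1984A change and received Compound E. Each group has 3 arrays. All cells are of a single line, and separate cultures are not stated for the samples within a group. The p-values thus describe how far these samples scatter, and that scatter may be technical.

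Notch receptors are cut by gamma-secretase after ligand binding or, in many T-cell leukaemias, through activating mutations. The freed intracellular part enters the nucleus and joins the DNA-binding protein RBPJ and a Mastermind-like coactivator. On paired binding sites that face each other, a pair of such complexes can touch through their ankyrin repeats and bind together, while on single sites a lone complex suffices. Notch signals drive early T-cell development, and in T-cell leukaemia they sustain growth, in large part through Myc. An intracellular Notch needs no gamma-secretase cut and can act in the presence of GSI.

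Each array gives log2 expression values, from which 19938 genes were tested. The medians of the 24 arrays lay between 3.90 and 4.18, and a gene whose group mean is at or below 4.18 is called near background here, since a difference from such a level has an uncertain size. Arrays correlated across genes with r of 0.986 to 0.993 within R1984A-GSI and 0.982 to 0.993 within MigR1-GSI. The replicate 3 arrays had the highest medians of both groups, 4.14 and 4.18. In MigR1-GSI replicate 3 stood apart from the others (r of 0.982 to 0.986). In R1984A-GSI replicate 2, with a median of 4.07, was close to replicate 3 (r of 0.993), and replicate 1, with 3.95, was farther from it (r of 0.986). The main counts are therefore also given without the replicate 3 arrays. The cells had the T-cell receptor complex genes Cd3d, Cd3e and Cd3g at 9.19 to 10.59 in the 6 arrays, and the surface marker Thy1 at 8.03 to 9.0. The further chain Cd247 was at 5.55 to 6.76, Cd2 at 4.93 to 5.75 and Bcl11b at 5.94 to 6.26. Cd5 averaged 4.05 in R1984A-GSI, near background, and 4.24 in MigR1-GSI. For Cd247 (-0.60, SE 0.18) and Thy1 (-0.52, SE 0.15) all R1984A-GSI arrays lay lower. Neither was called in limma's test (adjusted p = 0.13 and 0.1). Cd8a (3.77 to 4.09), Rag2 (2.33 to 2.78) and Dntt (2.97 to 3.26), which mark later or recombining thymocytes, were near background. Of 11 B-cell, 12 myeloid, 8 erythroid or megakaryocyte and 12 stromal or epithelial markers measured, limma called 0 different between the groups. Over all genes the share called was 1.36%, so few calls are to be looked for in lists this short. Of these markers 1, 0, 0 and 1 had an unadjusted p under 0.05. Their group means were above 4.18 for 3, 1, 4 and 4 genes in R1984A-GSI, and for 1, 1, 4 and 4 in MigR1-GSI.

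The Notch1 probe set read 5.73, 5.62 and 5.63 in the 3 MigR1-GSI arrays and 7.05, 7.16 and 7.0 in the 3 R1984A-GSI arrays. The groups did not overlap, and the difference was 1.41 (SE 0.13, adjusted p = 4.3e-07). Whether this probe set reads the construct, the endogenous gene or both was not tested. Rbpj was at -0.32 (SE 0.19, adjusted p = 0.84) and Maml1 at 0.01 (SE 0.13, adjusted p = 1), and neither was called.

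A gene was called when its adjusted p in limma's moderated test was under 0.05, with Benjamini-Hochberg adjustment over all genes. R1984A-GSI and MigR1-GSI differed in 272 genes, 1.36% of those tested. Of these, 207 were higher in R1984A-GSI (1.04%) and 65 lower (0.326%). The rises spanned 0.38 to 2.66 on the log2 scale with a median of 0.82, and 65 of the 207 exceeded 1. The falls had a median of -0.79, and 12 of the 65 were larger than 1 in size. In all 207 and all 65 called genes the 3 arrays of one group lay beyond the 3 of the other. Over all genes, 5.30% had the R1984A-GSI arrays all higher and 5.02% all lower. The calls rest on these same arrays, so the separation follows largely from the choice of genes. The number of falls called depended more on single arrays. Without R1984A-GSI replicate 3 there were 155 rises and 24 falls, 179 genes in all, and without R1984A-GSI replicate 2 there were 168 and 36. Without both replicate 3 arrays 145 genes were called, 115 higher and 30 lower, and 136 of them were among the 272. With only these 6 arrays in the fit 96 genes were called, 78 higher and 18 lower. With the replicate number as a block 496 were called, 318 higher and 178 lower.

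**Figure D1:**
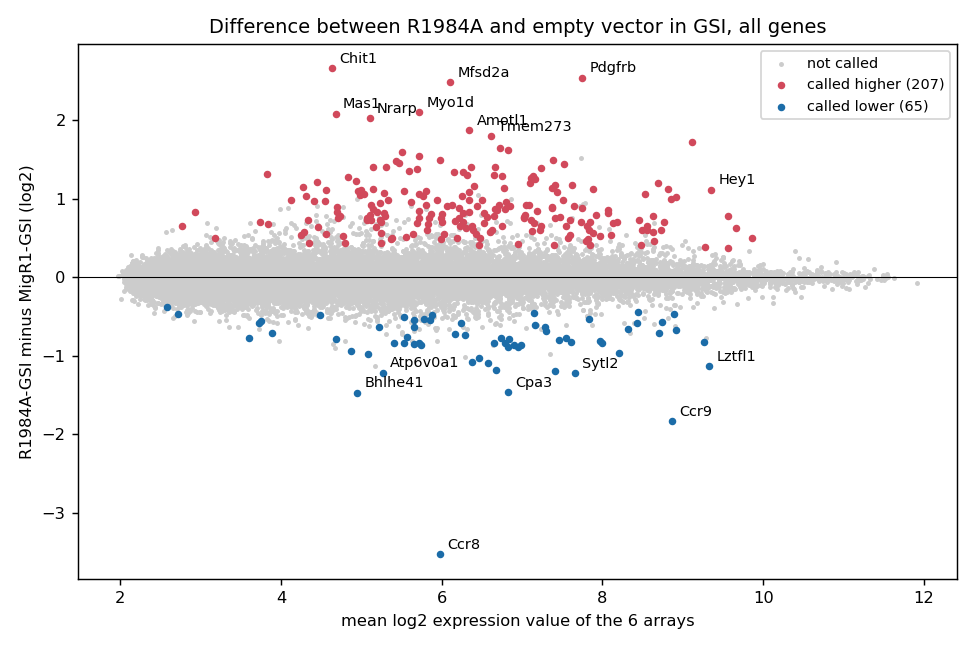
Difference R1984A-GSI minus MigR1-GSI on the log2 scale (vertical axis) against the mean log2 expression value of the 6 arrays (horizontal axis), 1 point per gene. Red points are the 207 genes called higher and blue points the 65 called lower; Chit1 (2.66) and Ccr8 (-3.53) lie farthest out.

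Among known Notch targets, the feedback genes showed clear rises. Nrarp, a small ankyrin protein that dampens Notch activity, read 4.0, 4.10 and 4.17 in MigR1-GSI and 5.98, 6.18 and 6.2 in R1984A-GSI. The groups were separated by far more than their spread, a rise of 2.03 (SE 0.11, adjusted p = 4.2e-11). Its MigR1-GSI level was near background. Dtx1, the Deltex ubiquitin ligase of the pathway, read 5.42, 5.07 and 5.21 against 6.89, 6.65 and 6.65, a rise of 1.5 (SE 0.21, adjusted p = 9.3e-05). In MigR1-DMSO, where the cells' own Notch could still be cut, Nrarp averaged 5.31 and Dtx1 6.46.

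Receptor and ligand genes followed. Notch3, a receptor that Notch1 itself induces in T-cell leukaemia, read 6.04, 5.96 and 5.79 in MigR1-GSI and 6.82, 6.71 and 6.77 in R1984A-GSI, a rise of 0.83 (SE 0.14, adjusted p = 7.5e-04). The ligand gene Jag1 rose by 0.77 (SE 0.13, adjusted p = 0.0011), from 4.87, 5.05 and 4.79 to 5.72, 5.49 and 5.82. Neither gene's arrays overlapped. Of 10 receptor and ligand genes, Notch1 included, 3 rose and 0 fell (30% called, against 1.36% of all genes). Whether the Notch1 probe set reads the construct was not tested, which limits this share. The list's median difference was 0.14, against -0.01 over all genes. Of 28 genes of Notch processing and the nuclear complex (gamma-secretase subunits, sheddases, Fringe enzymes, corepressors and coactivators) 0 were called by limma, and 2 had an unadjusted p under 0.05. Their differences ran from -0.32 (Rbpj) to 0.38 (Maml3), with a median of 0.06. Jag1 lost its call without the replicate 3 arrays (adjusted p = 0.067) and with only these 6 arrays in the fit (adjusted p = 0.066).

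The targets listed as independent of dimerization both rose. Hey1, a transcriptional repressor of the Hairy family, read 8.88, 8.90 and 8.59 in MigR1-GSI and 9.94, 9.84 and 9.94 in R1984A-GSI, a rise of 1.12 (SE 0.11, adjusted p = 7.3e-07). Il2ra, which encodes the interleukin-2 receptor alpha chain CD25, rose by 1.49 (SE 0.14, adjusted p = 7.3e-07), from 6.66, 6.77 and 6.50 to 8.17, 7.98 and 8.25. In both genes the R1984A-GSI mean, 9.91 and 8.13, was above the MigR1-DMSO mean, 9.79 and 7.40.

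Of the 5 genes listed as targets with paired sites, Nrarp alone was called (20%, against 1.36% of all genes). Myc, the growth regulator, read 8.08, 8.18 and 7.07 in MigR1-GSI and 8.51, 8.5 and 8.14 in R1984A-GSI. The groups overlapped, with the lowest value in MigR1-GSI replicate 3, and the difference was 0.61 (SE 0.21, 95% interval 0.17 to 1.04, adjusted p = 0.31). In MigR1-DMSO Myc averaged 9.28. Hes1, a repressor of the Hairy family, read 4.07, 4.53 and 4.47 against 4.65, 4.61 and 4.90, without overlap, at 0.37 (SE 0.14, adjusted p = 0.42). Ptcra, the alpha chain of the pre-T-cell receptor, was at -0.19 (SE 0.17, adjusted p = 0.99) and Hes5, another Hairy-family repressor, at -0.06 (SE 0.14, adjusted p = 1). Ptcra arrays ran from 3.91 to 4.61 in R1984A-GSI and from 4.33 to 4.44 in MigR1-GSI, close to background. A p that misses the threshold does not show that these genes were equal in the groups.

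Of the 34 measured genes of the wider Notch target list, 8 were higher (Hey1, Nrarp, Dtx1, Notch1, Notch3, Il2ra, Mfsd2a and Jag1) and 3 lower, 32.4% called against 1.36% of all genes. The list's median was 0.10. It was assembled with earlier results of these data known, so its share is a description. The share also counts Notch1, whose probe set may read the construct. The lower members were Lztfl1, a regulator of ciliary protein traffic, at -1.13 (SE 0.12, adjusted p = 4.3e-06), the survival gene Bcl2 at -0.66 (SE 0.11, adjusted p = 8.3e-04) and the T-cell transcription factor Gata3 at -0.44 (SE 0.11, adjusted p = 0.041). Without the replicate 3 arrays 7 were higher and 2 lower. Gata3 lost its call in 5 of the 6 fits with 1 array left out (adjusted p up to 0.23), all but the fit without R1984A-GSI replicate 1. Bcl2 kept its call in all 6 but not with only these 6 arrays in the fit (adjusted p = 0.12).

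ICN1-GSI shows where the dimerizing form stood under the same treatment. The test of ICN1-GSI against R1984A-GSI is a test of the construct difference itself, and it shares the R1984A-GSI arrays with the comparison above. Myc averaged 9.52 in ICN1-GSI, higher than in R1984A-GSI by 1.14 (SE 0.21, adjusted p = 0.0052). Hes1 was higher by 0.71 (SE 0.14, adjusted p = 0.0082) and Ptcra by 0.85 (SE 0.17, adjusted p = 0.0082). Of the other raised targets, Mfsd2a was lower in ICN1-GSI, at -0.88 (SE 0.17, adjusted p = 0.006), and the rest were not called. Nrarp was at 0.25 (95% interval 0.03 to 0.47), Dtx1 at 0.22 (-0.20 to 0.65), Hey1 at 0.02 (-0.20 to 0.24), Il2ra at -0.24 (-0.53 to 0.06), Notch3 at -0.21 (-0.49 to 0.08) and Jag1 at 0.39 (0.12 to 0.66). These intervals leave room for differences of the sizes they span.

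**Figure D2:**
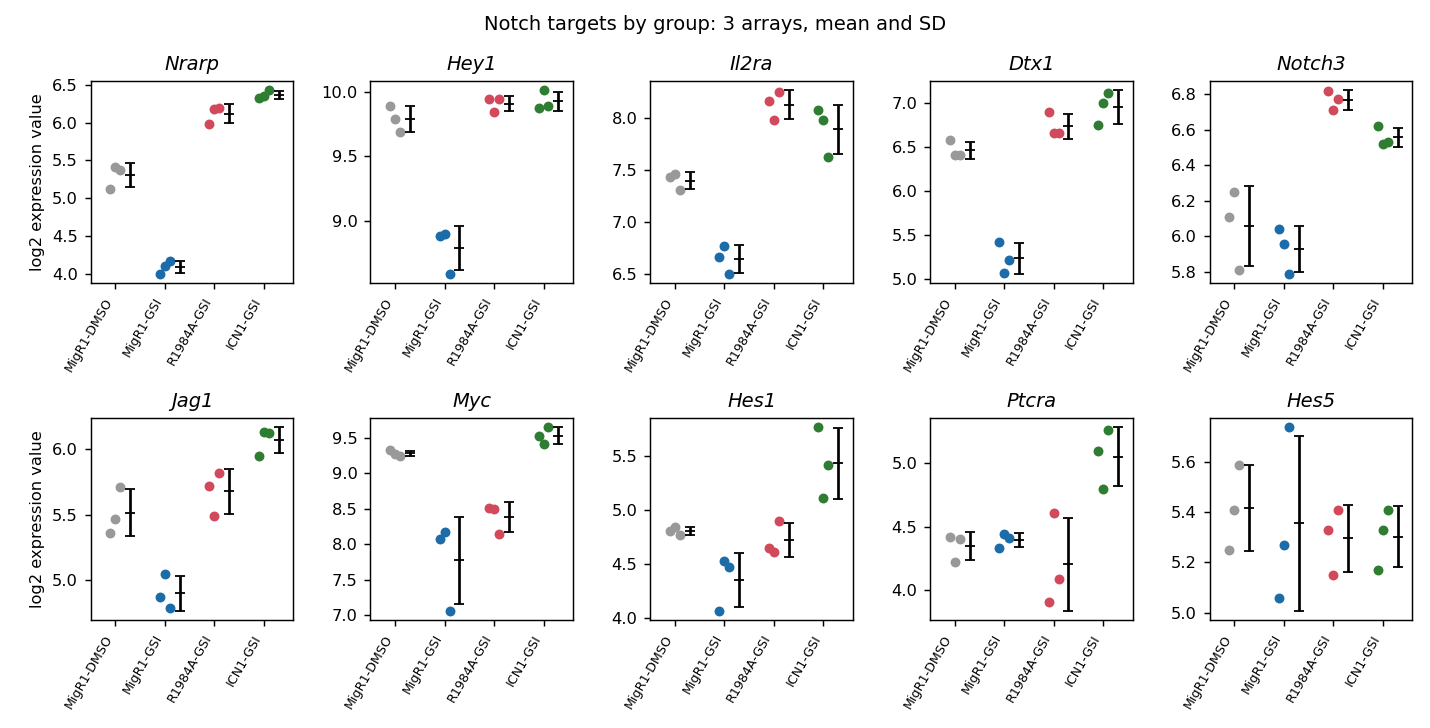
Log2 expression values of 10 Notch targets in MigR1-DMSO, MigR1-GSI, R1984A-GSI and ICN1-GSI, with 3 arrays per group as points and the mean with its SD beside them; each panel has its own vertical scale. Nrarp, Hey1, Il2ra and Dtx1 lie well above MigR1-GSI in both R1984A-GSI and ICN1-GSI, while Myc, Hes1 and Ptcra are higher in ICN1-GSI than in R1984A-GSI.

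Chit1, a chitinase of activated macrophages, had the largest rise. It read 3.46, 3.29 and 3.18 in MigR1-GSI, near background, and 6.37, 5.24 and 6.3 in R1984A-GSI. The lowest of these was replicate 2, and the rise was 2.66 (SE 0.23, adjusted p = 2.6e-07). Pdgfrb, a receptor tyrosine kinase for platelet-derived growth factor usually found on mesenchymal cells, read 6.61, 6.46 and 6.36 against 8.84, 8.97 and 9.24. The rise of 2.54 (SE 0.16, adjusted p = 5.1e-10) made it the only one called of 23 receptor tyrosine kinase genes measured. That is 4.35% of the list, against 1.36% of all genes. The stromal markers listed above included its relative Pdgfra, at 0.17 and not called. Mfsd2a, which carries lysophospholipids into cells, read 4.97, 4.91 and 4.72 against 7.32, 7.28 and 7.44, a rise of 2.48 (SE 0.17, adjusted p = 2.4e-09).

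Myo1d, an unconventional myosin, rose by 2.10 (SE 0.25, adjusted p = 1.3e-05), from 4.89, 4.60 and 4.52 to 6.78, 6.59 and 6.94. Amotl1, an angiomotin family protein of cell junctions, rose by 1.87 (SE 0.17, adjusted p = 6.5e-07), from 5.78, 5.14 and 5.32 to 7.38, 7.29 and 7.17. Rras2, a small GTPase of the Ras family, rose by 1.72 (SE 0.12, adjusted p = 3.2e-09), from 8.34, 8.30 and 8.11 to 9.82, 9.94 and 10.14. Mical1, an enzyme that oxidizes actin filaments, rose by 1.64 (SE 0.13, adjusted p = 6.3e-08), from 5.88, 6.09 and 5.77 to 7.52, 7.52 and 7.63. In each of these the spread within groups was small beside the distance between them.

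Mas1, a G-protein-coupled receptor, rose by 2.08 (SE 0.22) from 3.64, near background, with R1984A-GSI arrays at 5.64, 5.32 and 6.19. Tmem273, a membrane protein, rose by 1.80 (SE 0.34, adjusted p = 0.0037), and Olfml3, a secreted olfactomedin-like protein, by 1.62 (SE 0.20, adjusted p = 2.5e-05). Cd7, a surface glycoprotein of T and natural killer cells, had R1984A-GSI arrays at 6.69, 5.56 and 7.20, again lowest in replicate 2. Its rise was 1.55 (SE 0.31, adjusted p = 0.0064), and it lost its call without R1984A-GSI replicate 3 (adjusted p = 0.08) and without MigR1-GSI replicate 2 (adjusted p = 0.05). Without the replicate 3 arrays Cd7 and Tmem273 lost their calls (adjusted p = 0.11 and 0.054). With only these 6 arrays in the fit Cd7 was not called either (adjusted p = 0.16). Serpinb8, an intracellular inhibitor of serine proteases, read 5.09, 4.71 and 4.33 against 6.57, 6.10 and 6.22, a rise of 1.59 (SE 0.17, adjusted p = 4.4e-06).

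**Figure D3:**
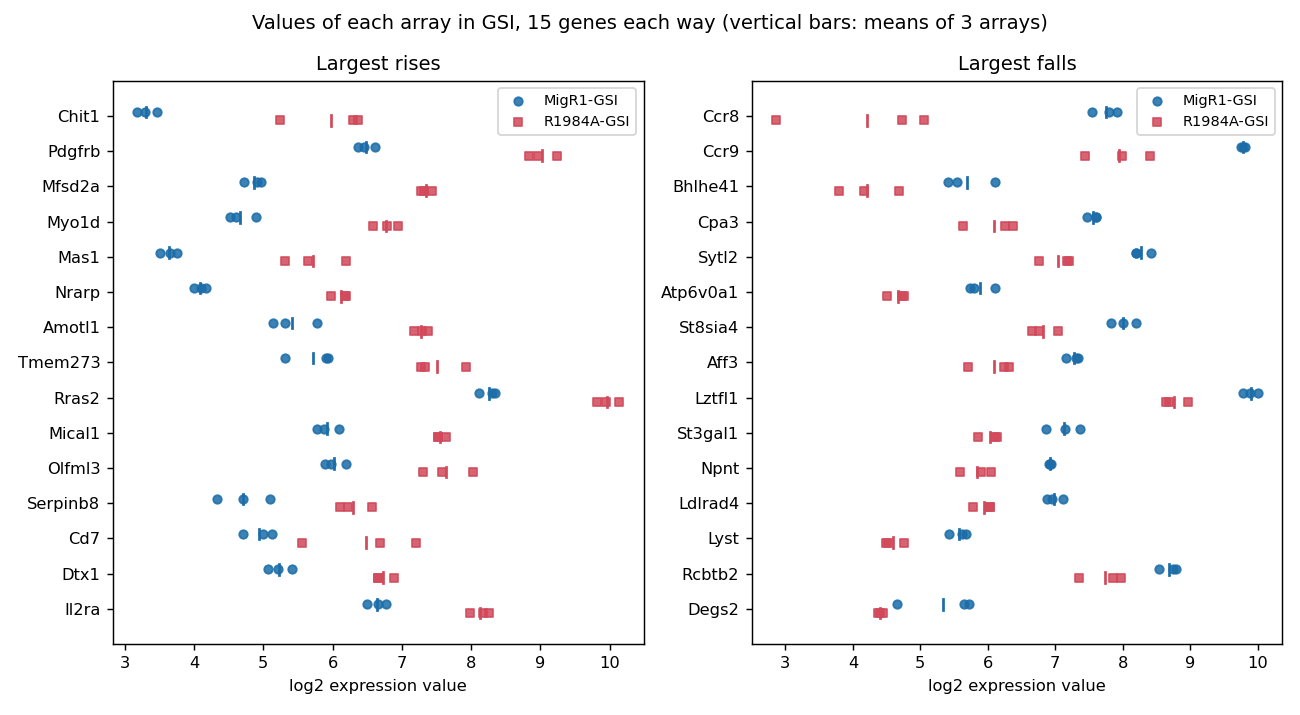
Log2 expression value of each array (horizontal axis) for the 15 genes with the largest rise (left) and the 15 with the largest fall (right); blue circles are the 3 MigR1-GSI arrays, red squares the 3 R1984A-GSI arrays, and short vertical bars the group means. The groups do not overlap in any of the 30 genes, which the rule for naming them required. Ccr8 has the widest spread, from 2.86 to 5.05 in R1984A-GSI.

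Since the series concerns paired Notch binding sites, RefSeq promoter windows of assembly GRCm38.p6, from 250 bases before to 50 bases after a start site, were searched for the RBPJ motif GTGGGAA on either strand. Of 165 called-higher genes with a window, 16 held a match (9.70%), against 1 of 49 called-lower genes (2.04%) and 7.09% of 15562 genes with a window, so the share among called-higher genes was near that of all genes. A head-to-head pair, TGNGAA followed after 15 to 17 bases by TTCNCA, which reads the same on both strands, was found in 1 called-higher window (0.606%), 0 called-lower windows and 0.141% of all. Of 27 Notch targets with a window 4 held a match (14.8%), among them the paired-site target Hes5 with 2. The windows of Nrarp, Il2ra and Dtx1 held no match, which says only that these letters are not in those windows. The window of Serpinb8, one of the 15 largest rises, held 2 single matches and no head-to-head pair, and is shown to display what the search found, 5′ to 3′ on the gene's strand, with GTGGGAA or its reverse complement in capitals. It lies at chr1:107589756-107590055 on the plus strand.
Serpinb8: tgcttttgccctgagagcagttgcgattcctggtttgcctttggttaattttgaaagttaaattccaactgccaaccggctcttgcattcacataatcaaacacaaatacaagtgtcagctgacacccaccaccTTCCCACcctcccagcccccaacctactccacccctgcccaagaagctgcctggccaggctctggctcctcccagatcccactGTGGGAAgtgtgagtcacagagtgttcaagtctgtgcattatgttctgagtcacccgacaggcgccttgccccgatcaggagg
The matches lie 116 bases before the start, on the strand opposite to the gene, and 33 bases before it, on the gene's strand. A match is a description of the letters and not a shown binding site.

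The largest falls were those of the chemokine receptor genes Ccr8 and Ccr9. Ccr8, a receptor found on skin-homing and regulatory T cells, read 7.91, 7.79 and 7.54 in MigR1-GSI and 5.05, 4.73 and 2.86 in R1984A-GSI. The last array, replicate 3, widened the spread, and the fall was 3.53 in size (-3.53, SE 0.39, adjusted p = 4.2e-06) and -2.85 (SE 0.30) without it. The R1984A-GSI mean of Ccr8, 4.21, was barely above 4.18 and replicate 3 lay below that mark, so the size of the fall is uncertain. Ccr9, which guides cells to thymus and gut, was at -1.83 (SE 0.27, adjusted p = 2.4e-04), from 9.78, 9.81 and 9.75 to 8.41, 7.99 and 7.44. Of 23 chemokine and migration receptors measured 2 fell and 0 rose (8.70% called, against 1.36% of all genes), with a median of -0.15, and the same 2 genes were called without the replicate 3 arrays.

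Bhlhe41, a repressor that acts in the circadian clock, was at -1.47 (SE 0.20, adjusted p = 7.3e-05), with arrays at 6.11, 5.54 and 5.41 against 4.68, 3.79 and 4.16. Its R1984A-GSI mean, 4.21, was also barely above 4.18. Cpa3, a mast cell carboxypeptidase, was at -1.47 (SE 0.26, adjusted p = 0.0016), and it lost its call without the replicate 3 arrays (adjusted p = 0.068). Atp6v0a1, which encodes part of the proton pump of vacuoles, read 5.80, 5.74 and 6.11 against 4.76, 4.73 and 4.50, at -1.22 (SE 0.12, adjusted p = 1.5e-06). The sialyltransferase genes St8sia4 (-1.20, SE 0.19) and St3gal1 (-1.09, SE 0.14) both fell. So did Aff3, a nuclear protein of the AF4 family (-1.19, SE 0.18), Npnt, an extracellular ligand of integrins (-1.08, SE 0.16), Ldlrad4, a negative regulator of TGF-beta signalling (-1.03, SE 0.12), and Lyst, which controls lysosome size (-0.98, SE 0.15).

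The remaining falls named by the rule were less firm. Sytl2, an effector of vesicle docking, was at -1.23 (SE 0.24, adjusted p = 0.0054) and Rcbtb2 at -0.96 (SE 0.19, adjusted p = 0.0065). Both lost their call without R1984A-GSI replicate 3 (adjusted p = 0.057 and 0.08). Degs2, a sphingolipid hydroxylase, was at -0.94 (SE 0.22, adjusted p = 0.028), with MigR1-GSI arrays at 5.64, 5.72 and 4.66 against 4.37, 4.44 and 4.40. It lost its call in 5 of the 6 fits with 1 array left out (adjusted p up to 0.22), and without the sixth, MigR1-GSI replicate 3, it was at -1.28.

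Some signalling genes of T-cell receptor and ERK pathways were called. Of 39 genes of T-cell receptor signalling and its checkpoints 4 rose and 0 fell (10.3% called, against 1.36% of all genes), with a median of 0.04. Nr4a1, an immediate-early nuclear receptor, rose by 1.45 (SE 0.15, adjusted p = 2.7e-06), from 4.90, 4.63 and 4.69 to 6.37, 6.26 and 5.94. The costimulatory receptor Cd28 rose by 1.10 (SE 0.19, adjusted p = 0.0016), the ubiquitin ligase Cblb by 0.60 (SE 0.10, adjusted p = 0.0013) and the transcription factor Nfatc2 by 0.49 (SE 0.12, adjusted p = 0.028). Nfatc2 lost its call in 4 of the 6 fits with 1 array left out (adjusted p up to 0.25), and without the replicate 3 arrays Cd28 and Nfatc2 were not called. With only these 6 arrays in the fit Nr4a1 alone of the list was called (adjusted p = 0.12 for Cblb and 0.11 for Cd28). Of 20 ERK feedback genes the phosphatase genes Dusp1 and Dusp4 were called (10%, against 1.36% of all genes) and went opposite ways. Dusp1 rose by 1.3 (SE 0.17, adjusted p = 6.3e-05), with arrays at 5.62 to 5.70 against 6.89 to 7.03, and Dusp4 was at -0.89 (SE 0.18, adjusted p = 0.0083). Dusp4 lost its call in 4 of the 6 such fits (adjusted p up to 0.076).

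Of 14 RGS genes, which switch off G-protein signals, Rgs1 (1.13, SE 0.17) and Rgs3 (0.65, SE 0.12) rose and 0 fell. Of 16 brakes of PI3K and mTOR signalling the phosphatase genes Phlpp1 (0.75, SE 0.14) and Inpp5d (0.53, SE 0.13) rose. Inpp5d lost its call in 5 of the 6 fits with 1 array left out (adjusted p up to 0.23). The mTOR inhibitor Deptor, another member, was at -0.22 (SE 0.15, adjusted p = 0.93). Of 28 cytokine receptors Il2ra rose and Kit, the receptor of stem cell factor, fell (-0.54, SE 0.12, adjusted p = 0.017). Of 22 integrin and adhesion genes Cdh1, which encodes E-cadherin, rose by 0.73 (SE 0.14, adjusted p = 0.0045), from 4.74, 4.77 and 4.76 to 5.56, 5.43 and 5.45. The shares called were 14.3% of the RGS genes, 12.5% of the brakes, 7.14% of the cytokine receptors and 4.55% of the adhesion genes. Over all genes the share was 1.36%. Without the replicate 3 arrays Phlpp1, Rgs3 and Cdh1 lost their calls (adjusted p = 0.11, 0.14 and 0.054). With only these 6 arrays in the fit Kit and Rgs3 did (adjusted p = 0.46 and 0.12).

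T-lineage identity genes went both ways. Of 28 measured, 2 rose and 4 fell (21.4% called, against 1.36% of all genes), with a median of -0.10. Runx1, a transcription factor of blood development, rose by 1.13 (SE 0.11, adjusted p = 7.3e-07), from 6.79, 6.81 and 6.83 to 7.99, 7.95 and 7.88, and Cd28 rose as given above. Ets1, a transcription factor of lymphocytes (-0.64, SE 0.14), Cd4 (-0.71, SE 0.15, near background in R1984A-GSI at 3.53), Kit and Gata3 fell. The calls of these falls depended on single arrays: without R1984A-GSI replicate 2 limma called 0 of them, and without R1984A-GSI replicate 3 Kit alone. Their differences stayed below 0 in the 6 fits with 1 array left out. They ran from -0.80 to -0.48 for Ets1, -0.75 to -0.69 for Cd4, -0.64 to -0.37 for Kit and -0.51 to -0.38 for Gata3. Rag1, which starts antigen receptor recombination, was at 0.66 (SE 0.31, adjusted p = 0.63). Of 12 natural killer and innate cell markers the granule gene Prf1 (0.94, SE 0.16) and the inhibitor of differentiation Id2 (0.99, SE 0.14) rose and Cpa3 fell. That is 25% of the list called, against 1.36% of all genes. The summed log2 level of that list ran from 53.2 to 55.1 in R1984A-GSI arrays and from 54.1 to 54.9 in MigR1-GSI arrays. The part of other cell types in these results was not tested.

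Growth and cell-cycle lists showed few calls, but few are to be looked for in lists of this length. Of all 19938 genes 1.36% were called, and 1497 had an unadjusted p under 0.05 in limma. The counts below thus do not show that growth genes were unchanged. Among 53 genes of Myc and of ribosome production there were 0 calls by limma, 3 unadjusted p-values under 0.05 and a median of 0.00. There were also 0 calls among 29 G1/S genes (1 at an unadjusted p under 0.05, median -0.06), 15 regulators of G1 (3 such genes, median 0.01) and 20 cholesterol synthesis genes (2 such genes, median 0.14). Amino acid stress genes (24 measured) and NF-kappaB genes (15 measured) also had 0 calls, each with 3 at an unadjusted p under 0.05, and medians of -0.09 and -0.01. Of 26 G2/M genes the spindle checkpoint kinase Ttk was called, at 0.41 (SE 0.10, adjusted p = 0.049), and it lost its call in each of the 6 fits with 1 array left out. Of 20 p53 and apoptosis genes Bcl2 fell and 0 rose, and of 25 interferon-response genes Irf9, a subunit of the interferon-activated complex ISGF3, rose by 0.99 (SE 0.18, adjusted p = 0.0027). Irf9 lost its call without the replicate 3 arrays (adjusted p = 0.11) and with only these 6 arrays in the fit (adjusted p = 0.066).

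Of 22 quiescence genes measured, 3 rose and 0 fell (13.6% called, against 1.36% of all genes), and the list's median was -0.05. Bcl6, a transcriptional repressor, rose by 1.10 (SE 0.18, adjusted p = 8.5e-04), the antiproliferative gene Btg1 by 1.03 (SE 0.17, adjusted p = 8.5e-04) and the forkhead factor Foxp1 by 0.61 (SE 0.13, adjusted p = 0.015). In ICN1-GSI all 3 were lower than in R1984A-GSI, by differences of -1.07 (adjusted p = 0.0021), -0.72 (adjusted p = 0.037) and -0.58 (adjusted p = 0.029). The genes were chosen for calls that rest on the same R1984A-GSI arrays, a choice that favours a lower value in ICN1-GSI. Foxp1 lost its call in 4 of the 6 fits with 1 array left out (adjusted p up to 0.084), and without the replicate 3 arrays Btg1 alone of the 3 was called. With only these 6 arrays in the fit Bcl6 alone was.

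**Figure D4:**
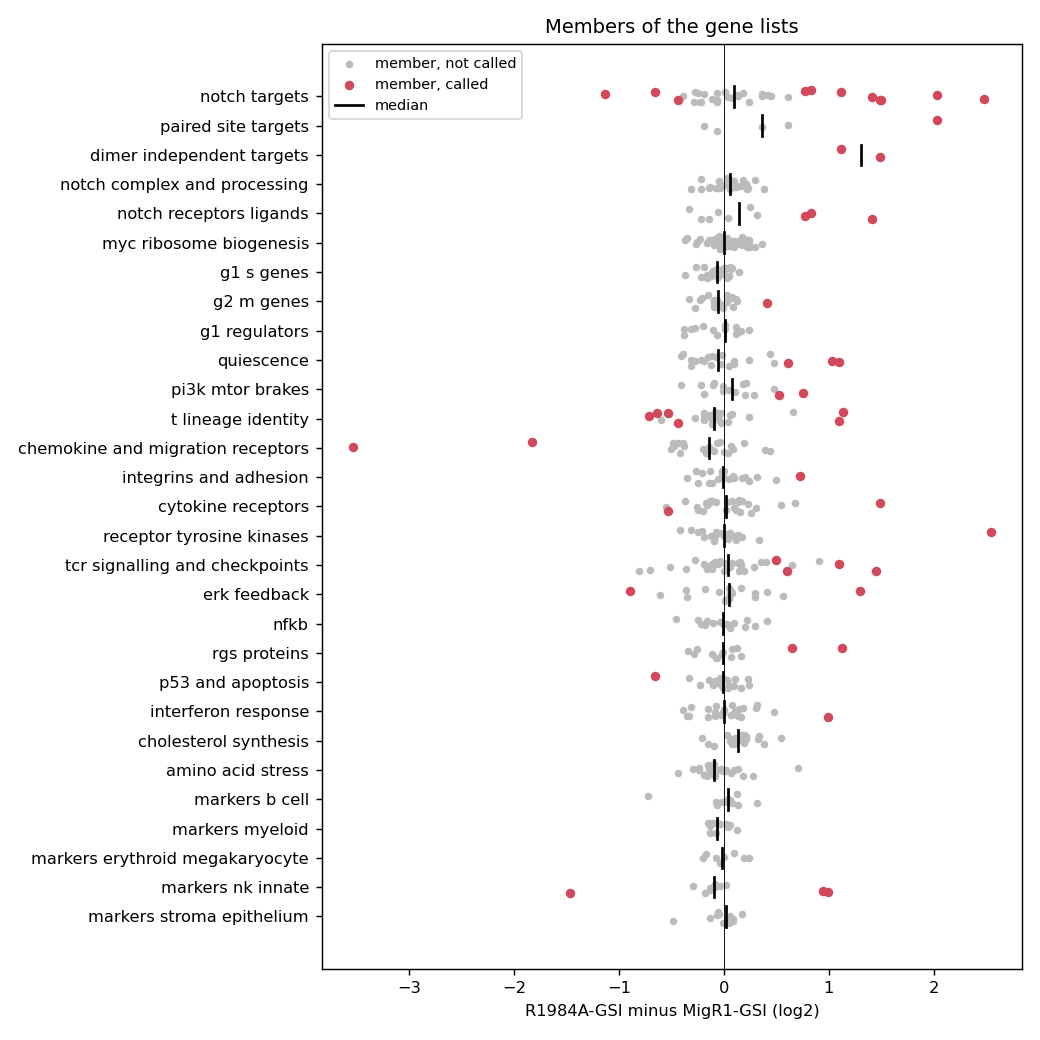
Log2 difference R1984A-GSI minus MigR1-GSI (horizontal axis) for every measured member of the 29 gene lists; grey points are members not called, red points called members, and black bars the list medians. List medians lie close to 0 except in the short Notch lists, and the calls are single genes on either side.

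The same constructs were compared in DMSO in 6 other arrays, where the cells' own Notch was not blocked. R1984A-DMSO and MigR1-DMSO differed in 195 genes (0.978%), 173 higher and 22 lower. In this comparison same-numbered samples deviated together (correlations of 0.203 to 0.521), and with the replicate number as a block 366 genes were called. Of the 207 genes higher in GSI, 124 were also called higher in DMSO, 59.9% of the GSI list and 71.7% of the DMSO list, against 0.868% of all genes called higher there. Of the 65 lower genes 8 were also called lower, 12.3% and 36.4% of the lists, against 0.110% of all genes. No gene was called in opposite directions, and 202 of the 207 and 60 of the 65 had the same sign in DMSO, where 47.8% of all genes were above 0 and 52.2% below. The DMSO arrays were separated in the same direction for 189 of the 207, against 6.56% of all genes, and for 39 of the 65, against 5.75%. The rises had a median of 0.82 in GSI and 0.68 in DMSO, the falls -0.79 and -0.39. Without the replicate 3 arrays of the groups compared the shared calls were 53 higher and 2 lower. The medians in GSI are those of genes called on these values, so they are raised by that choice. No label says whether the R1984A cells of both treatments came from a single transfection.

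Among shared genes, Chit1 rose by 2.88 (SE 0.23) in DMSO, Cd7 by 2.22 (SE 0.31), Pdgfrb by 1.92 (SE 0.16) and Rras2 by 1.72 (SE 0.12), and Ccr8 fell, at -2.02 (SE 0.39, adjusted p = 0.0053). Ccr8 in DMSO lost its call without R1984A-DMSO replicate 3 (adjusted p = 0.063). Npnt (-0.88) and Ccr9 (-1.19) also fell in DMSO, and Ccr9 lost its call there in 5 of the 6 fits with 1 array left out (adjusted p up to 0.19), all but that without R1984A-DMSO replicate 1. Deptor and Uaca, an adaptor protein with ankyrin repeats, were lower with R1984A in DMSO alone by the call (-1.05 and -1.19), and their difference between treatments was not called (adjusted p = 0.71 and 1).

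The test of the difference itself, the R1984A effect in GSI minus that in DMSO, called 5 genes (0.0251%), all with a positive value. Of the rises in GSI 4 were among them, and the fifth gene was not called in GSI. Nrarp rose by 2.03 in GSI and 0.85 in DMSO, a difference of 1.18 (SE 0.15, adjusted p = 0.0014), with MigR1 means of 4.09 and 5.31 and R1984A means of 6.12 and 6.15. Mfsd2a had 2.48 and 1.07 (difference 1.42, adjusted p = 0.03), Hey1 1.12 and 0.24 (0.88, adjusted p = 0.03) and Agfg1, an RNA and vesicle transport factor, 0.78 and 0.01 (0.77, adjusted p = 0.03). The MigR1 means of the other 3 were lower in GSI than in DMSO, 4.86 and 6.45 for Mfsd2a, 8.79 and 9.79 for Hey1 and 9.17 and 9.99 for Agfg1. The R1984A means lay closer together, at 7.35 and 7.52 for Mfsd2a and 9.91 and 10.03 for Hey1. Of these 4 genes Nrarp alone was called in every fit with 1 of the 12 arrays left out, and it lost its call with only these 12 arrays in the fit (adjusted p = 0.11) and without the replicate 3 arrays (adjusted p = 0.088). Mfsd2a lost its call in 9, Hey1 in 11 and Agfg1 in all 12 (adjusted p up to 0.13, 0.15 and 0.15), and with arrays centred on their medians 1 gene was called. Among the 65 falls this difference was called by limma in 0 genes, and 33 had an unadjusted p under 0.05. So had 37 of the 207 rises and 701 of all 19938 genes. The rises and falls were chosen on the GSI difference, which is part of this test. That choice favours small p-values, so these counts do not show that the falls depended on GSI.

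**Figure D5:**
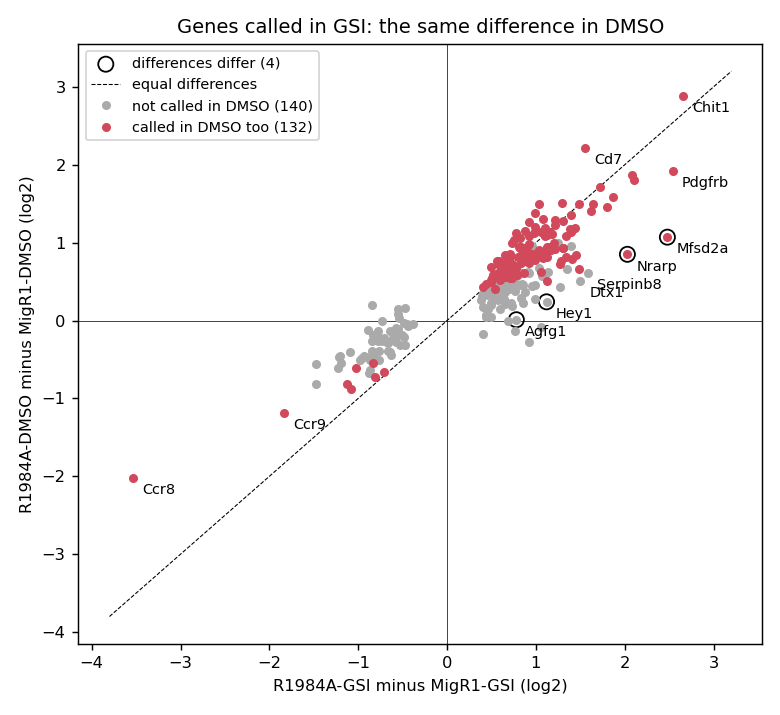
For the 272 genes called in GSI, the log2 difference R1984A minus MigR1 in GSI (horizontal axis) and in DMSO (vertical axis); red points are genes called in DMSO too (124 higher and 8 lower), grey points the others, open circles the 4 genes whose differences differ by the test, and the dashed line marks equal differences. Chit1 (2.66 and 2.88) and Cd7 (1.55 and 2.22) lie above the line, while Nrarp, Mfsd2a, Hey1 and Agfg1 lie below it.

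Beyond the Notch targets, the test of ICN1-GSI against R1984A-GSI called 220 genes (1.10%). Of these, 64 stood higher with ICN1 (0.321%) and 156 stood lower (0.782%). The higher ones included Iftap (3.79, SE 0.28), Tmem255a (3.52, SE 0.24), Rag1 (3.27, SE 0.31), the zinc finger gene Zfp750 (2.75, SE 0.15) and Rag2 (2.59, SE 0.21). R1984A-GSI held none of these 5 above MigR1-GSI by the call, and Tmem255a, Iftap and Rag2 were near background in both. The lower ones included Slc15a1, a peptide transporter (-2.15, SE 0.34), Tmem273 (-2.11, SE 0.34), Rgs1 (-1.57, SE 0.17), Lrrc6 (-1.54, SE 0.29) and Myo1d (-1.47, SE 0.25). Of these, Tmem273, Rgs1 and Myo1d were among the genes raised by R1984A, with ICN1-GSI means of 5.40, 4.14 and 5.30 and MigR1-GSI means of 5.72, 4.58 and 4.67. Chit1, Pdgfrb, Mfsd2a, Mas1, Rras2 and Mical1 were also lower in ICN1-GSI than in R1984A-GSI, at -1.07, -0.89, -0.88, -1.34, -0.58 and -0.60, while Serpinb8 was higher, by 1.70 (SE 0.17, adjusted p = 3.9e-06). These genes were chosen for high values in the R1984A-GSI arrays, which both comparisons share. The split depended on the arrays: without ICN1-GSI replicate 3 it was 56 higher and 59 lower (115 genes), without R1984A-GSI replicate 2 44 and 78 (122 genes), without R1984A-GSI replicate 3 39 and 93 (132 genes), and with arrays centred on their medians 42 and 57 (99 genes). Lrrc6 lost its call without ICN1-GSI replicate 3 (adjusted p = 0.068). Without the replicate 3 arrays of both groups Lrrc6 and Myo1d were not called (adjusted p = 0.23 and 0.11). Slc15a1 had ICN1-GSI arrays at 6.21, 6.40 and 4.28. It lost its call with only the arrays of these groups in the fit (adjusted p = 0.12).

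Some called genes lay side by side in the RefSeq gene order. There were 15 adjacent pairs called in the same direction and 2 called in opposite directions. Since 207 of the 272 called genes were rises, pairs of the same direction are favoured. The number of pairs to be had from the share called was not worked out. Lztfl1 and Ccr9, neighbours on chromosome 9, both fell. Mical1 and Smpd2, a sphingomyelinase gene beside it on chromosome 10, both rose, the latter by 1.40 (SE 0.17, adjusted p = 1.5e-05), and Ppil6 next to Smpd2 rose by 0.65 (SE 0.16, adjusted p = 0.036). Phlpp1 and Bcl2, neighbours on chromosome 1, went opposite ways. Smpd2 and Ppil6 were named after their values were seen. Probe sets of neighbouring genes may read overlapping transcripts, which was not tested.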

How the data were processed

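RNA was measured on 24 Affymetrix Mouse Gene 1.0 ST arrays. Per the submitters' processing notes, the authors made the deposited table of log2 values per probe set with the R packages oligo and limma. Background correction, normalization and summarization are not given in the sources used here, and the log2 scale was read from the range of 1.28 to 13.47. The platform annotation gave 1 symbol to 21789 of 35556 probe sets, several to 1621 and none to 12146; each of 19938 genes was represented by its brightest probe set on average, and dim genes were not filtered. All 24 arrays entered a single fit of group means (limma 3.58.1, R 4.3.3; 16 residual and 6.56 prior degrees of freedom), which was tested on simulated data. Precision is limited by the number of arrays.

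The genes named were, by rule, up to 15 largest rises and falls of the main comparison and 5 of the others among called genes without overlap of arrays, called members of the Notch lists, all members of the 2 short target lists, and up to 4 called members of each other list. Small RNA genes, segments of antigen receptors and clone names were not named. The members, lists and tests were chosen with earlier results of these data known. Alternatives were other normalizations, arrays in the fit, array weights, priors, probe sets, a replicate block and leaving out arrays; leaving out all replicate 3 arrays of the groups compared was added after seeing the data. In the DMSO comparison the same-numbered samples of the titles deviated together by 0.203, 0.311 and 0.521, each above 0.1. The promoter window of another gene with a match is not reported here.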

Additional observations from a re-analysis of the deposited data

Results flagged for a closer look

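The R1984A effect differed between GSI and DMSO, by an interaction test in the limma fit, for 4 of the genes named. The difference in effect was 1.18 for Nrarp, 1.42 for Mfsd2a, 0.88 for Hey1 and 0.77 for Agfg1, each with the larger effect in GSI. The fifth gene called by this test was a small nucleolar RNA gene, which the naming rule leaves out.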

How the results depend on the processing

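For R1984A-GSI against MigR1-GSI, 272 genes became 96 with only the arrays of the groups compared, 690 with array weights and 145 without the replicate 3 arrays, and 179 to 244 with 1 array left out. For R1984A against MigR1 in DMSO, 195 became 129, 338 and 84 under the same settings, and 130 to 155 with 1 array left out. For ICN1-GSI against R1984A-GSI, 220 became 51, 739 and 62, 99 with arrays centred on their medians, and 115 to 184 with 1 array left out. The 5 genes whose R1984A effect differed between treatments became 0 in limma with only the arrays of the groups compared (599 at an unadjusted p under 0.05), 16 with array weights, 0 without the replicate 3 arrays (883 such genes), 8 after a second quantile normalization, 1 with centred arrays, 3 with every probe set and 1 to 6 with 1 array left out.

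The replicate block gave 496 genes for R1984A-GSI against MigR1-GSI, 366 in DMSO, 577 for ICN1-GSI against R1984A-GSI and 12 for the difference between treatments. The numbers were not taken to pair the GSI groups, since the replicate 2 samples were below 0.1, at -0.062. Replicates 1 and 3 did deviate together, at 0.492 and 0.574, so whether these samples are paired is not known. The pair of ICN1-GSI and R1984A-GSI replicate 2 had 0.058. Of 960 values of 64 named genes under alternatives, 855 kept direction and call, 96 lost the call and 9 changed sign, all of genes that were not called. Those were Maml1 (-0.03 centred, -0.04 with array weights, -0.07 to 0.05 with 1 array left out, -0.09 without the replicate 3 arrays), Ptcra (0.06 with array weights) and Hes5 (-0.21 to 0.13 with 1 array left out, 0.07 without the replicate 3 arrays). Fits on fewer arrays have fewer degrees of freedom; the cause of the other changes was not tested.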
